A study of Mus musculus with 71 samples.

Results

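Pax5 is the transcription factor that commits early progenitors to the B cell lineage, and in pro-B cells it activates B cell genes while it represses genes of other lineages. Its paired domain binds DNA, and a short conserved stretch in its central region, the octapeptide (OP), binds corepressors of the Groucho family, which are encoded by the Tle genes. Removal of the OP therefore addresses which genes of pro-B cells depend on this stretch of Pax5. The comparison described here is that of pro-B cells homozygous for the OP deletion, Pax5(DOP/DOP) in the labels and Pax5 ∆OP/∆OP in the following, with Pax5 +/+ pro-B cells, across all genes that exceeded 1 TPM, a unit of expression per gene length and sequencing depth, in at least 1 of their libraries. This rule kept 12631 of the 25579 genes in the files, immunoglobulin and histone genes included, and 4 of the 71 samples of the series.

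Each genotype was represented by 2 poly(A) RNA-seq libraries, replicates 1 and 2 of Pax5 ∆OP/∆OP and replicates 3 and 4 of Pax5 +/+. The cells were labelled as C57BL/6 and were sorted ex vivo from bone marrow as pro-B cells. The ∆OP allele was made by gene targeting in embryonic stem cells, is present in the germline and thus in every cell of the mouse, and was backcrossed to C57BL/6. No age is given for these libraries in the labels. Pro-B cells with a deletion of part of the homeodomain (Pax5 ∆HD/∆HD, the homeodomain mutant) or of both stretches (Pax5 ∆OP,HD/∆OP,HD, the double mutant), 2 libraries each, were sequenced in the same format and entered the same fit. The labels do not say that the libraries of a genotype came from separate mice, so the p-values measure the spread between these libraries, which may be technical.

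The OP is encoded in exon 5 of Pax5, on the minus strand of chromosome 4. The coding part of this exon, chr4:44679440-44679568 in GRCm38, is shown because it holds the stretch that separates the genotypes. Capitals mark the 24 bases, chr4:44679486-44679509, whose codons match the octapeptide consensus of the Pax family. The bases removed in the allele were not analysed here.
Pax5 exon 5: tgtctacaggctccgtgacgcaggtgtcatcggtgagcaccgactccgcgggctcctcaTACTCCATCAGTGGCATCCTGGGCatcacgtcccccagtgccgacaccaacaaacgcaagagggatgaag
In an alignment of mouse Pax5 with the 6 other Pax proteins apart from Pax4 and Pax6, the 8 residues of the OP were identical in 68.8% of the pairs, compared with 28.1% for the rest of exon 5.

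The libraries held 28928773 and 34905750 reads assigned to genes for Pax5 +/+ and 34272785 and 29139289 for Pax5 ∆OP/∆OP, as recovered from the TPM values. Pax5 itself, which checks the labels only weakly because gene-level values do not show a short deletion, was at 342 and 360 TPM in Pax5 +/+ and at 480 and 434 TPM in Pax5 ∆OP/∆OP pro-B cells. This difference of 0.38 on the log2 scale (SE 0.10) did not pass the threshold (limma, adjusted p = 0.123). All 11 pro-B cell markers tested were above 1 TPM in each of the 4 libraries, and their summed levels ranged from 17547 to 18418 TPM in Pax5 +/+ and from 18212 to 18579 TPM in Pax5 ∆OP/∆OP cells. None of these markers passed the threshold. Vpreb1 and Igll1 encode the surrogate light chain and had log2 fold changes of 0.06 and -0.10.

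Few genes passed the thresholds of the study between Pax5 ∆OP/∆OP and Pax5 +/+ pro-B cells. By the 3 thresholds of the study (adjusted p below 0.05, more than 3-fold difference, and over 5 TPM on average in either genotype), 18 genes differed, which is 0.143% of those tested. Of these, 10 were higher (0.0792%) and 8 were lower (0.0633%) in the OP mutant. The balance of directions depended on the tool and on the genes counted, with 29 higher and 12 lower by DESeq2 on recovered reads, and with 9 higher and 3 lower by limma when genes of immunoglobulins and histones were not counted. By the adjusted p alone, 68 genes differed (0.538%), of which 40 were higher (0.317%) and 28 lower (0.222%), and 31 differed by less than 2-fold, while DESeq2 gave 962 genes. An unadjusted p under 0.05 was reached by 2510 genes (19.9%). The median log2 fold change of all genes was -0.03. The genes just above the fold threshold were 2510009E07Rik (3.17-fold) and Dennd3 (3.19-fold), and those just below it were Myl10 (2.92-fold) and Ighv1-23 (2.88-fold). The number of calls rested on every library, since 2 genes passed the thresholds without Pax5 +/+ replicate 3, 1 without replicate 4, none without Pax5 ∆OP/∆OP replicate 1 and 4 without replicate 2. The direction of all 18 genes was the same in each of these fits. Their groups did not overlap, so leaving out a library could not have reversed it.

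**Figure D1:**
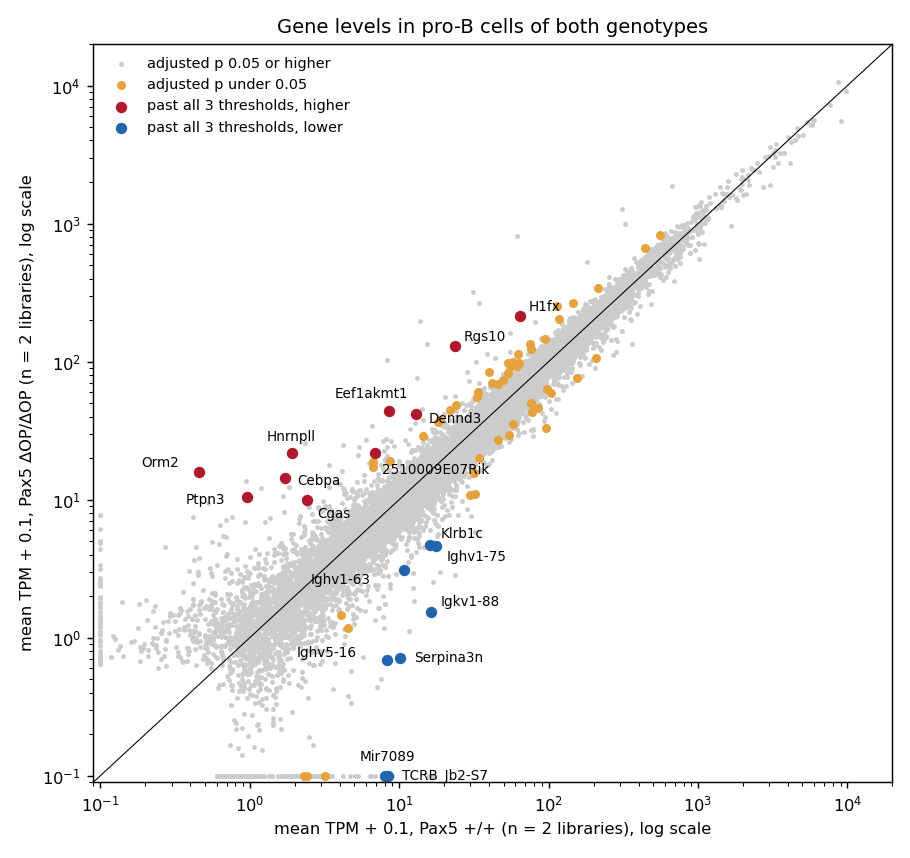
Mean TPM + 0.1 of each of the 12631 genes in Pax5 +/+ (x axis) and Pax5 ∆OP/∆OP (y axis) pro-B cells, n = 2 libraries each, both axes on a log scale, with the line of equal levels. The 10 genes higher and 8 genes lower past all 3 thresholds are named, and Mir7089 and TCRB_Jb2-S7 lie at the bottom because both were at 0 in Pax5 ∆OP/∆OP cells.

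The gene with the smallest p was Rgs10 (chr7:128373621-128419506, GRCm38), which encodes an activator of the GTPase function of G protein alpha subunits. It was at 21.5 and 25.4 TPM in Pax5 +/+ and at 132 and 126 TPM in Pax5 ∆OP/∆OP pro-B cells. Both mutant libraries thus lay far above both wild-type libraries, and the increase was 5.50-fold (log2 fold change 2.46, SE 0.12, limma, adjusted p = 0.000750). Rgs12, which encodes another member of the same family of 21 listed genes, of which 10 were tested, rose by less, from 49.2 ± 0.0785 to 73.4 ± 3.03 TPM (SD, n = 2, limma, adjusted p = 0.0491). The remaining 8 RGS genes did not pass the threshold.

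Hnrnpll (chr17:80029487-80062268) encodes a protein of the hnRNP family that acts on exon use in the RNA of CD45, a surface phosphatase of blood cells encoded by Ptprc. Its level was 1.23 and 2.396 TPM in Pax5 +/+ and 19.0 and 24.2 TPM in Pax5 ∆OP/∆OP pro-B cells, an increase of 11.8-fold (log2 fold change 3.56, SE 0.36, limma, adjusted p = 0.0194). The groups did not overlap, and the lower group rested on 48 and 107 reads. Ptprc itself was at 62.8 and 106 TPM against 86.7 and 70.5 TPM, with overlapping groups and an adjusted p of 0.896 (limma). Gene-level values do not show its isoforms. Of the 9 genes listed for CD45 and its splicing regulators, only Hnrnpll passed the threshold.

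Eef1akmt1 (chr14:57549595-57571582), which encodes a lysine methyltransferase of the translation elongation factor eEF1A, was at 7.99 and 8.81 TPM in Pax5 +/+ and at 46.4 and 41.1 TPM in Pax5 ∆OP/∆OP cells. This is a 5.16-fold increase (limma, adjusted p = 0.00138). Of the other 4 tested genes for such methyltransferases, none passed the threshold, and all 4 were lower without overlap between the groups, as were 23.1% of all genes. Cryl1, a gene close to Eef1akmt1 (chr14:57275034-57398483), rose from 62.1 ± 1.401 to 113 ± 1.35 TPM (SD, n = 2, limma, adjusted p = 0.0210).

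Dennd3 (chr15:73512560-73572242) encodes an exchange factor of small Rab GTPases, and its level rose from 12.7 and 13.1 TPM to 43.7 and 39.3 TPM (3.19-fold, limma, adjusted p = 0.00352). It was the only 1 of 13 tested genes for DENND proteins that passed the threshold. Cgas (chr9:78430518-78443237), the gene of the cytosolic DNA sensor that activates Sting, was at 1.85 and 2.77 TPM in Pax5 +/+ and at 10.1 and 9.75 TPM in Pax5 ∆OP/∆OP cells (4.24-fold, limma, adjusted p = 0.0267). The groups were separate in both cases. The other 4 tested members of the cGAS-STING pathway did not pass the threshold, and neither did any of 19 interferon-stimulated genes, whose median log2 fold change was -0.07. Ifi30, the gene of a lysosomal thiol reductase that was not on that list, rose from 116 and 112 TPM to 263 and 240 TPM (limma, adjusted p = 0.0194).

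The gene 2510009E07Rik (chr16:21649045-21694665) was at 6.86 and 6.75 TPM in Pax5 +/+ and at 21.04 and 22.5 TPM in Pax5 ∆OP/∆OP cells (limma, adjusted p = 0.0194). H1fx (chr6:87980421-87981482), which encodes a linker histone, was at 61.9 and 66.4 TPM against 180 and 248 TPM (3.29-fold, limma, adjusted p = 0.0262). In GENCODE M21 its exons overlap those of Gm5577 on the opposite strand, and reads of the 2 genes cannot be told apart without strand. H1fx was the only 1 of 66 histone genes that passed the threshold. Their median log2 fold change was 0.24, with 44 higher and 22 lower. In the 3 Pax5 +/+ libraries of the 50-nt format, H1fx was at 139 to 181 TPM, which reached the level of the lower Pax5 ∆OP/∆OP library.

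**Figure D2:**
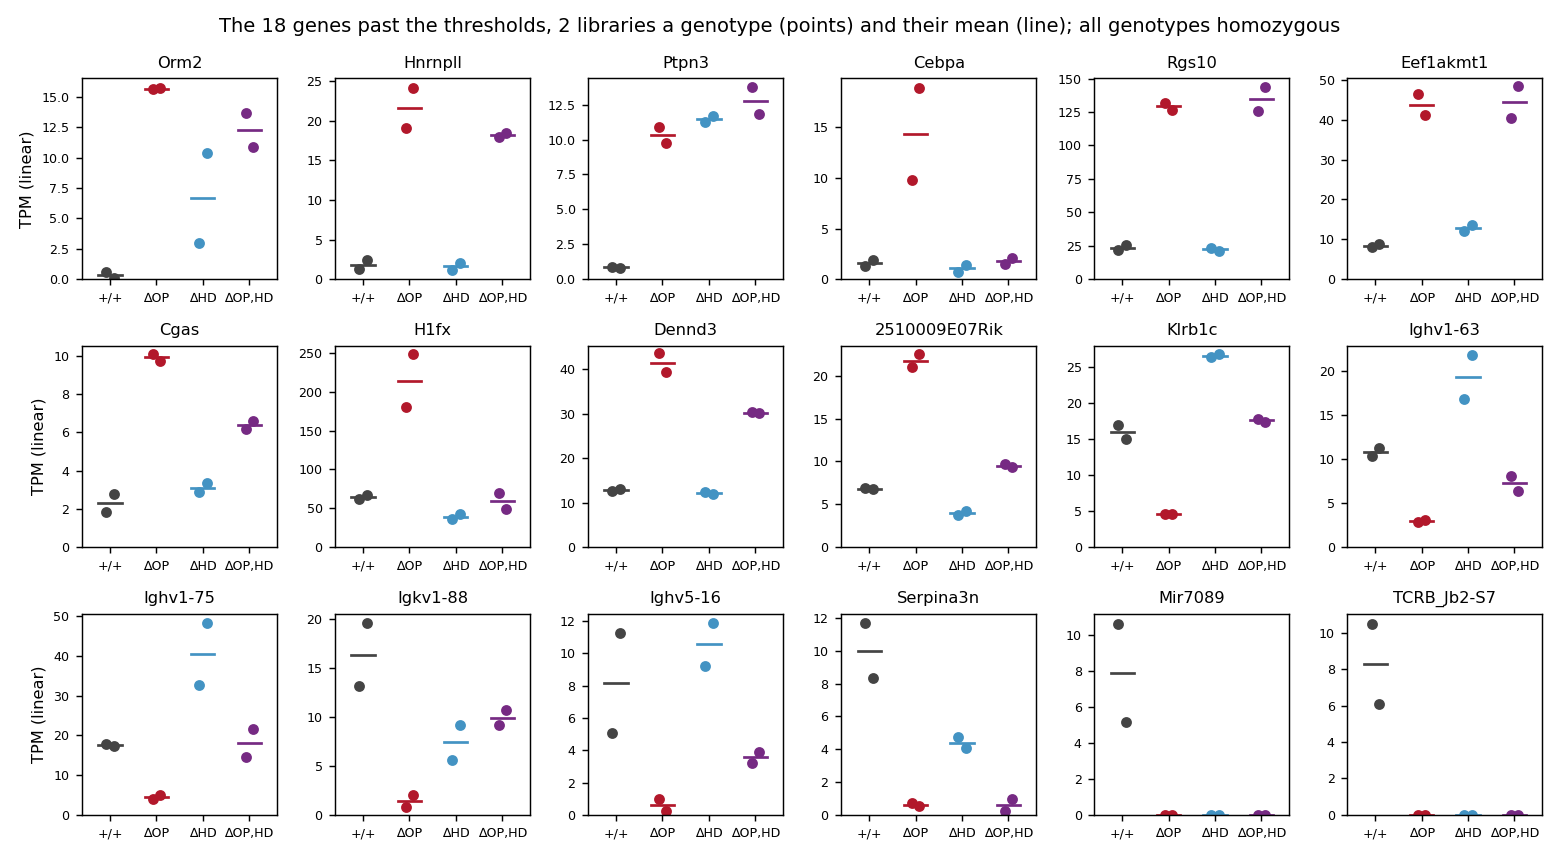
TPM (linear axis from 0) of the 18 genes past the thresholds in the 2 libraries (points) of Pax5 +/+, ∆OP/∆OP, ∆HD/∆HD and ∆OP,HD/∆OP,HD pro-B cells. Lines are means. Rgs10, Hnrnpll, Eef1akmt1, Dennd3 and Cgas were high in both genotypes without the OP, whereas Ptpn3 was above 9 TPM in all 6 mutant libraries.

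Among the genes that were lower, Klrb1c (chr6:128778485-128788641) encodes an NK cell receptor, the NK1.1 antigen of C57BL/6 mice. It was at 17.0 and 15.1 TPM in Pax5 +/+ and at 4.66 and 4.57 TPM in Pax5 ∆OP/∆OP pro-B cells (log2 fold change -1.77, SE 0.14, limma, adjusted p = 0.00541). Both mutant libraries lay well below both wild-type libraries. Klrb1c was the only 1 of 10 tested T and NK cell markers that passed the threshold, and the summed level of these markers was 183 and 194 TPM in Pax5 +/+ against 187 and 201 TPM in Pax5 ∆OP/∆OP cells. The sum hides single members. The groups did not overlap for 5 lower and 3 higher markers, compared with 23.1% and 25.3% of all genes. Klrd1 and Gzma had log2 fold changes of -2.11 and -1.49, and Nkg7 and Il2rb of 1.09 and 0.03, without a call. These genes were chosen after their values were seen. In bulk RNA, fewer cells of a type and less RNA per cell cannot be told apart.

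Serpina3n (chr12:104406646-104414334), which encodes a serine protease inhibitor, fell from 11.7 and 8.35 TPM to 0.696 and 0.520 TPM (14.2-fold lower, limma, adjusted p = 0.0396). Myl10, the gene of a myosin light chain, fell from 94.4 and 96.9 TPM to 33.9 and 31.6 TPM (limma, adjusted p = 0.0230). Lax1, which encodes a transmembrane adaptor of lymphocytes, fell from 107 and 102 TPM to 62.7 and 56.3 TPM (limma, adjusted p = 0.0267). The groups of each of these 3 genes were separate. In contrast, Pik3ap1, the gene of the B cell adaptor BCAP, rose from 598 and 520 TPM to 819 and 844 TPM (limma, adjusted p = 0.0487). Pik3ap1 was the only 1 of 17 listed genes of pre-BCR and BCR signalling that passed the threshold.

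Mir7089 and TCRB_Jb2-S7, both short features among the 8 lower genes, rested on very few reads. Mir7089, annotated on chromosome 9, had 9 and 5 reads in Pax5 +/+ and none in Pax5 ∆OP/∆OP cells. With a floor of 3 reads per library, its level was at least 2.36-fold lower. TCRB_Jb2-S7, a joining segment of the T cell receptor beta locus, had 6 and 4 reads against none, which is at least 1.68-fold lower. Both features were also at 0 in the libraries of the homeodomain mutant and the double mutant.

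Most immunoglobulin V segments had lower values in the OP mutant, and few of them passed the threshold. Of 117 heavy-chain V segments tested, 92 were lower and 25 were higher in Pax5 ∆OP/∆OP pro-B cells, with a median log2 fold change of -1.13. The groups did not overlap for 53 lower and 7 higher segments, compared with 23.1% and 25.3% of all genes. The fall was not shared by all families. Most Ighv2 segments were higher, such as Ighv2-6-8 (log2 fold change 1.60), although Ighv2-7 was lower (-0.70). Most Ighv3 and Ighv8 segments were lower, although Ighv8-9 was higher (1.95). None of these segments was called, and the families were chosen after their values were seen. Of all heavy-chain V segments, 4 fell and 1 rose by the adjusted p. The segment that rose was Ighv5-2 (log2 fold change 0.73). Ighv1-75 fell from 17.9 and 17.3 TPM to 4.08 and 4.92 TPM (limma, adjusted p = 0.0281), and Ighv1-63 from 10.3 and 11.2 TPM to 2.89 and 3.09 TPM (limma, adjusted p = 0.0262). Ighv5-16 was at 5.09 and 11.3 TPM against 0.954 and 0.220 TPM (limma, adjusted p = 0.0491), the latter from 5 reads and 1 read. The summed level of all 117 segments was 909 and 1111 TPM in Pax5 +/+ and 738 and 625 TPM in Pax5 ∆OP/∆OP cells, and it was 1188 and 1228 TPM in the homeodomain mutant and 992 and 1030 TPM in the double mutant. The sum was thus lower in both Pax5 ∆OP/∆OP libraries than in any of the other 6. Some V segments of a family are closely similar in sequence, and the assignment of reads among such segments is uncertain.

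Of 46 light-chain V segments, which are rearranged mostly after the pro-B cell stage, 40 were lower and 6 were higher. The median log2 fold change was -2.10, but it was 0.00 without Pax5 +/+ replicate 4. That library held 159 TPM in these segments and replicate 3 held 53.8 TPM. The Pax5 ∆OP/∆OP libraries held 25.1 and 18.5 TPM. Igkv1-88 fell from 13.1 and 19.6 TPM to 0.802 and 2.08 TPM (limma, adjusted p = 0.0267). Igkv1-117 had 11 and 23 reads in Pax5 +/+ and none in Pax5 ∆OP/∆OP cells, which is at least 5.49-fold lower (limma, adjusted p = 0.0267). The other 19 immunoglobulin segments and constant regions gave no call, with 15 lower and 4 higher. Of these, Igkc was at 159 and 559 TPM against 163 and 107 TPM, and Ighj4 at 89.5 and 160 TPM against 72.5 and 51.0 TPM.

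The recombination genes that act on these segments did not pass the threshold. Rag1 was at 451 and 495 TPM in Pax5 +/+ and at 537 and 430 TPM in Pax5 ∆OP/∆OP cells, and Dntt, the gene of terminal deoxynucleotidyl transferase, at 3158 and 3373 TPM against 3060 and 3007 TPM. Of the 12 genes listed for V(D)J recombination, 9 were lower and 3 higher, with a median log2 fold change of -0.25.

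**Figure D3:**
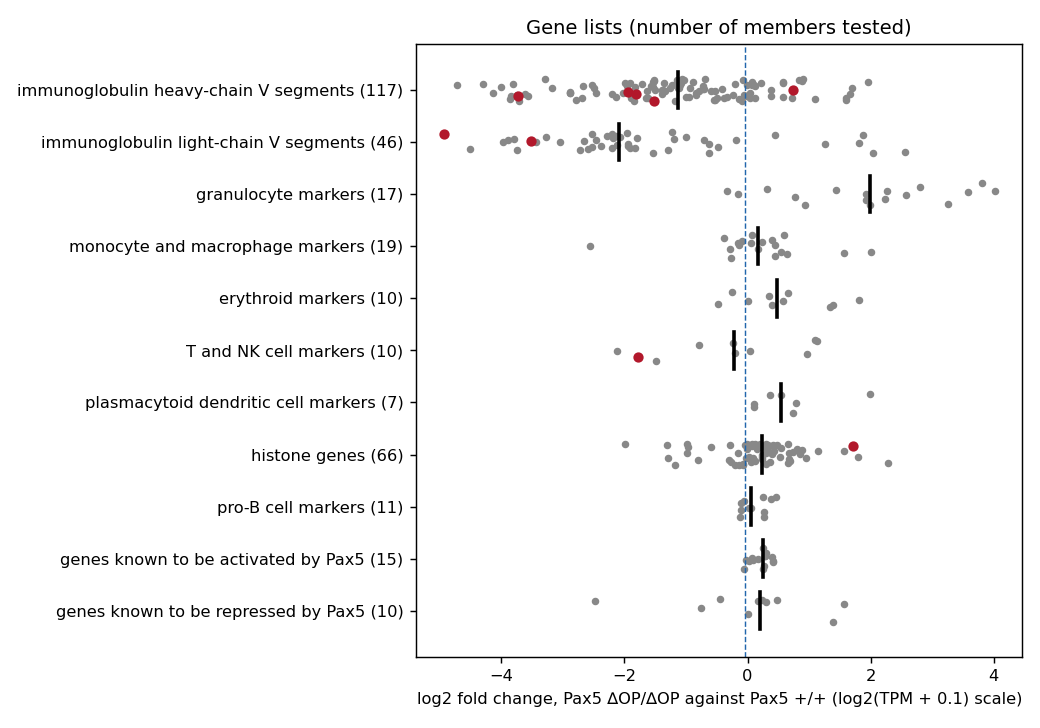
Log2 fold change of Pax5 ∆OP/∆OP against Pax5 +/+ pro-B cells on the log2(TPM + 0.1) scale for each tested member of 11 gene lists, with the number of members in parentheses. Red points passed an adjusted p of 0.05, black bars are list medians, and the dashed line is the median of all genes (-0.03). The heavy-chain (-1.13) and light-chain (-2.10) V segments lie to the left and the granulocyte markers (1.99) to the right.

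Cebpa and Spi1 rose in the OP mutant, in which most granulocyte markers also had higher values. Cebpa (chr7:35119293-35121928), which encodes a transcription factor required for granulocyte development, was at 1.34 and 1.89 TPM in Pax5 +/+ and at 9.79 and 18.9 TPM in Pax5 ∆OP/∆OP cells (8.10-fold, limma, adjusted p = 0.0485). Spi1, the gene of PU.1, which acts in both myeloid and B cell development, rose from 109 and 127 TPM to 196 and 213 TPM (1.74-fold, limma, adjusted p = 0.0267). The groups of both genes did not overlap. The 2 genes differed in the double mutant, where Spi1 was also higher (log2 fold change 0.64, limma, adjusted p = 0.0294) and Cebpa was at 0.16. The difference between Pax5 ∆OP/∆OP cells and the double mutant did not pass the threshold for Spi1 (limma, adjusted p = 0.549). It did for Cebpa (limma, adjusted p = 0.0323). Of 17 granulocyte markers, 15 were higher, with a median log2 fold change of 1.99, and none passed the threshold. The summed level of these markers was 937 and 7337 TPM in Pax5 +/+ replicates 3 and 4 and 7937 and 8254 TPM in the Pax5 ∆OP/∆OP libraries. Hence the Pax5 +/+ libraries differed far more from each other than replicate 4 did from the mutant cells, and the median was 0.83 without replicate 3 and 3.08 without replicate 4. The sum was 503 and 1860 TPM in the homeodomain mutant and 676 and 7316 TPM in the double mutant. In Pax5 +/+ replicate 4 and in the double-mutant library with the sum of 7316 TPM, Cebpa was at 1.89 and 2.09 TPM. Similar sums do not mean the same cell types. S100a9 was at 3140 TPM in replicate 4 and at 1062 and 848 TPM in Pax5 ∆OP/∆OP cells, whereas Mpo was at 99.1 TPM against 647 and 970 TPM. In Pax5(DCRD2/-) pro-B cells, Cebpa was higher in the replicate in which the basophil and mast cell gene Mcpt8 was also high.

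The markers within this list did not move alike. S100a9, a gene of mature granulocytes, was at 183 and 3140 TPM in Pax5 +/+ and at 1062 and 848 TPM in Pax5 ∆OP/∆OP cells, with overlapping groups. Mpo, the gene of myeloperoxidase, which is made in granulocyte progenitors, was at 23.9 and 99.1 TPM against 647 and 970 TPM (limma, adjusted p = 0.139). Mpo and the following genes were chosen after their values were seen. Prss34 and Mcpt8, which encode proteases of basophils and mast cells, were at 10.6 and 16.8 TPM against 171 and 225 TPM, and at 5.28 and 11.1 TPM against 87.9 and 117 TPM. Gata2, which encodes a transcription factor of progenitors, basophils and mast cells, was at 1.22 and 0.963 TPM against 11.2 and 12.9 TPM, and Cpa3, a mast cell protease gene, at 0.333 and 0.724 TPM against 6.14 and 6.84 TPM. The groups were separate for these 4 genes, and their adjusted p values lay between 0.113 and 0.125 (limma). The part of such cells in the levels of Cebpa and Spi1 was not tested.

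Markers of other cell types gave no further call. Of 19 monocyte and macrophage markers, 12 were higher (median log2 fold change 0.17), and their summed level was 292 and 656 TPM in Pax5 +/+ against 669 and 661 TPM in Pax5 ∆OP/∆OP cells. Of 10 erythroid markers, 8 were higher (median 0.48), with sums of 3854 and 3943 TPM against 3502 and 4624 TPM. All 7 tested markers of plasmacytoid dendritic cells were higher (median 0.54), with sums of 335 and 318 TPM against 370 and 407 TPM, and of 5 plasma cell markers 1 was higher (median -0.08). None of 5 sex-linked genes passed the threshold. Xist, an RNA of female cells, was at 18.2 and 20.7 TPM in Pax5 +/+ and at 21.8 and 15.5 TPM in Pax5 ∆OP/∆OP cells. The Y-linked gene Eif2s3y was at 13.1 and 29.5 TPM against 17.0 and 15.5 TPM. Transcripts of both sexes were thus present in each of the 4 libraries.

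The corepressor genes themselves did not pass the threshold in this comparison. Aes, which encodes a short member of the Groucho family, was at 664 and 639 TPM in Pax5 +/+ and at 452 and 499 TPM in Pax5 ∆OP/∆OP cells (limma, adjusted p = 0.0836). Tle1 was at 2.67 and 3.19 TPM against 0.691 and 1.05 TPM (limma, adjusted p = 0.0970), and Tle6 at 10.7 and 8.0004 TPM against 3.56 and 5.23 TPM (limma, adjusted p = 0.133). The groups of these 3 lower genes were separate, and so were those of 2 higher genes, Tle3 and Tle4. Among all genes, 23.1% were lower and 25.3% higher without overlap. Tle3, at 187 and 178 TPM against 195 and 222 TPM, and Tle4, at 54.4 and 57.2 TPM against 63.2 and 62.4 TPM, had adjusted p values of 0.290 and 0.380 (limma). Among the full-length members, Tle3 therefore had the highest level per length in both genotypes. Against the same Pax5 +/+ libraries, Aes was called lower in the double mutant (log2 fold change -0.92, limma, adjusted p = 0.00688) and was at 0.07 in the homeodomain mutant. Without a call, Tle1 and Tle6 had values of -1.31 and -0.80 in the double mutant, and Tle3 and Tle4 of 0.07 and 0.26.

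No gene on the lists of known Pax5 targets used here passed the threshold. These lists were not complete. They did not hold Hnrnpll, Cgas and Eef1akmt1, which passed and which the study groups with genes repressed by Pax5. Of 15 genes known to be activated by Pax5, 13 were higher and 2 were lower, with a median log2 fold change of 0.25 and no call. Of 10 tested genes known to be repressed by Pax5, 7 were higher and 3 were lower, with a median of 0.21 and no call. Among them, Notch1, the gene of the receptor that directs T cell development, was at 76.7 and 58.6 TPM in Pax5 +/+ and at 95.6 and 91.2 TPM in Pax5 ∆OP/∆OP cells (limma, adjusted p = 0.134). Earlier work implicated Pax5 in the repression of Notch1, whereas the study proposes that this repression is likely independent of Pax5. Fcer1g, the gene of a signalling chain of Fc receptors, was at 18.8 and 39.2 TPM against 78.5 and 65.5 TPM (limma, adjusted p = 0.246). Of 18 transcription factors of the B lineage, 16 were higher and only Spi1 passed the threshold. No member passed it among 22 cell cycle, 14 glycolysis, 14 IL-7 signalling, 11 pre-B stage, 11 immediate-early and 8 hypoxia genes tested, whose median log2 fold changes lay between -0.33 and 0.41.

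Further genes changed by less than 3-fold. Irs2, an adaptor gene of insulin receptor signalling, rose from 23.9 ± 1.25 to 48.2 ± 1.44 TPM (SD, n = 2, limma, adjusted p = 0.0267). Hmces, whose product protects abasic sites in single-stranded DNA, rose from 75.2 ± 0.937 to 135 ± 8.49 TPM (limma, adjusted p = 0.0210), and the kinase gene Sbk1 from 145 ± 3.11 to 265 ± 24.9 TPM (limma, adjusted p = 0.0262). Abcc1, which encodes a drug and leukotriene exporter, rose from 8.54 ± 0.454 to 19.0 ± 1.54 TPM (limma, adjusted p = 0.0286). Mmp11, Myl12b and Map7d1 rose by 1.73-fold, 1.61-fold and 1.62-fold. Ski, the gene of a corepressor of TGF-beta signalling, and Faap20, a gene of the Fanconi anaemia pathway, rose by 2.56-fold and 2.02-fold, and both are on chromosome 4.

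Pax5 lies on chromosome 4, so that genes near it are inherited together with the modified allele. Within 20 Mb of the start of Pax5, 4 of 170 genes tested (Pax5 included) passed the adjusted p threshold, which is 2.35% compared with 0.538% of all genes. Tomm5, the gene of a subunit of the mitochondrial import complex, begins 0.58 Mb from Pax5 and fell from 79.5 and 74.1 TPM to 43.2 and 43.1 TPM (limma, adjusted p = 0.0267). Ptpn3, the gene of a non-receptor tyrosine phosphatase, begins 12.7 Mb away and was at 0.898 and 0.815 TPM in Pax5 +/+ against 10.9 and 9.76 TPM in Pax5 ∆OP/∆OP cells (10.9-fold, limma, adjusted p = 0.00124). It was the only 1 of 14 such phosphatase genes that passed the threshold. Alad, which encodes an enzyme of haem synthesis, begins 17.98 Mb away and rose from 43.1 and 37.0 TPM to 84.2 and 82.5 TPM (limma, adjusted p = 0.0354). Orm2, the gene of an acute-phase glycoprotein, begins 18.8 Mb away and had 6 reads and 1 read in Pax5 +/+ against 167 and 146 reads in Pax5 ∆OP/∆OP cells, or 0.624 and 0.0907 TPM against 15.7 and 15.7 TPM (limma, adjusted p = 0.0286). Apart from Tomm5, these genes were also high in the homeodomain and double mutants, where the log2 fold changes against the same Pax5 +/+ libraries were 3.601 and 3.75 for Ptpn3, 1.26 and 0.98 for Alad, and 3.93 and 5.05 for Orm2. The difference between the OP and homeodomain mutants passed the threshold for none of Ptpn3, Alad and Orm2 (limma, adjusted p of 0.701, 0.492 and 0.300). Per the study's methods, the double-mutant allele was made by editing Pax5 ∆OP/∆OP zygotes, so these 2 mutants share the modified chromosome and are not independent. The homeodomain deletion was made in zygotes of C57BL/6 and CBA origin and then backcrossed to C57BL/6. The part of linked alleles in these levels was not tested.

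**Figure D4:**
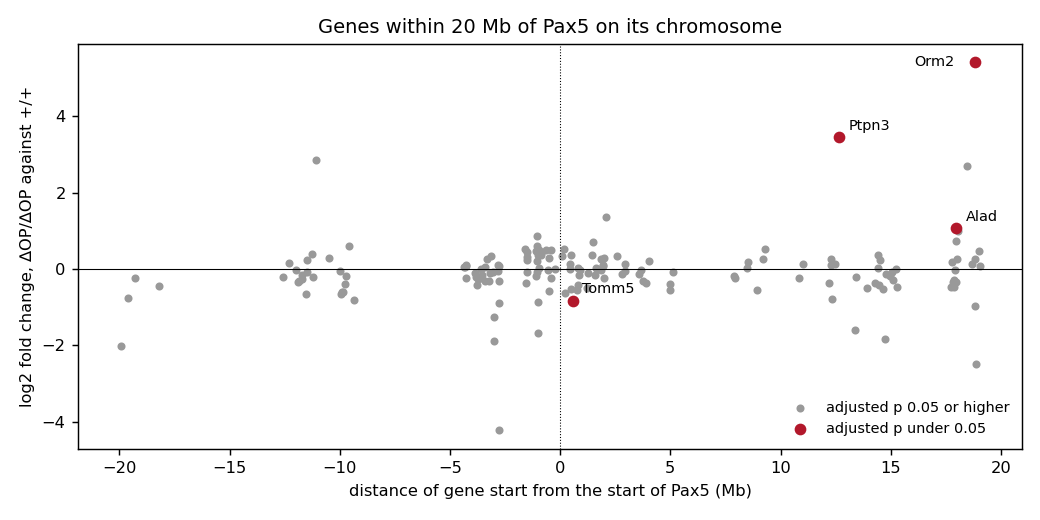
Log2 fold change of Pax5 ∆OP/∆OP against Pax5 +/+ pro-B cells (y axis) for genes within 20 Mb of Pax5, by the distance of their start from that of Pax5 in Mb (x axis). Of the red genes with an adjusted p below 0.05, Tomm5 is at 0.58 Mb and Ptpn3, Alad and Orm2 are at 12.7 to 18.8 Mb.

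The Pax5 ∆OP/∆OP libraries were also set against the other central deletions, in contrasts of the same fit, whose spread the Pax5 +/+ libraries help to set. The 18 genes were chosen on the same 2 Pax5 ∆OP/∆OP libraries that enter these contrasts, so that the counts are a description and are not read against the shares of all genes. Of the 18 genes, 14 differed by the adjusted p between Pax5 ∆OP/∆OP cells and the homeodomain mutant (all genes, 3.94%), but 9 did so without Pax5 ∆OP/∆OP replicate 1 and 7 without replicate 2. The exceptions were Ptpn3 and Orm2 and the features TCRB_Jb2-S7 and Mir7089. Between Pax5 ∆OP/∆OP cells and the double mutant 7 of the 18 differed (all genes, 1.09%). These 7 were Cebpa, H1fx, 2510009E07Rik, Klrb1c, Ighv1-63, Ighv1-75 and Igkv1-88.

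A first set of 6 genes, all among the 18 past the 3 thresholds, was high or low in both genotypes without the OP. The following values are all against the same Pax5 +/+ libraries, so these comparisons share their controls. By the adjusted p alone, 80 genes (0.633%) differed from Pax5 +/+ in the homeodomain mutant and 155 (1.23%) in the double mutant. Of the 40 genes higher in Pax5 ∆OP/∆OP cells by the adjusted p, 21 also passed it in the double mutant and 3 in the homeodomain mutant. Of the 28 lower genes, 3 and 6 did so. These counts are a description, because the controls are shared. The log2 fold change of Rgs10 was 2.46 in Pax5 ∆OP/∆OP cells, 2.52 in the double mutant and -0.06 in the homeodomain mutant. For Hnrnpll the values were 3.56, 3.32 and -0.13, for Eef1akmt1 2.37, 2.38 and 0.60, and for Dennd3 1.67, 1.22 and -0.09. For Cgas they were 2.08, 1.46 and 0.43, and for Serpina3n -3.83, -4.08 and -1.15. The difference between Pax5 ∆OP/∆OP and the double mutant did not pass the threshold for any of these 6 genes (limma, adjusted p from 0.165 for Dennd3 to 0.977 for Eef1akmt1). Some genes that changed by less than 3-fold were also called in the double mutant. In the same order, the values were 1.36, 1.65 and 0.83 for Ski, 1.15, 1.28 and 0.74 for Abcc1, and 0.84, 0.72 and 0.31 for Hmces.

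A second set of genes differed between the single and the double mutant. Cebpa had log2 fold changes of 3.02 in Pax5 ∆OP/∆OP cells and 0.16 in the double mutant, and the difference between them passed the threshold (limma, adjusted p = 0.0323). H1fx had values of 1.72 and -0.13 (limma, adjusted p of the difference 0.0115) and Klrb1c of -1.77 and 0.14 (limma, adjusted p of the difference 0.00309). Ifi30, at 1.14 and 0.19, also differed (limma, adjusted p = 0.0145), as did Myl10, at -1.54 and 0.75 (limma, adjusted p = 0.00309), and Lax1, at -0.81 and -0.13 (limma, adjusted p = 0.0296).

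The genes of the first set were also measured in cells with other Pax5 alleles, and no test was made there. Deletions of the C-terminal regulatory domains (CRD1 and CRD2) and Vav-Cre Pax5(fl/fl) progenitors, in which Pax5 is deleted in blood cells, served for this description, with 2 libraries a genotype. Hnrnpll had means of 16.6 to 32.1 TPM in the 6 CRD genotypes and 21.5 ± 2.68 TPM in the progenitors, against 2.92 ± 0.794 TPM (n = 3) in the Pax5 +/+ pro-B cells of the 50-nt format, to which the progenitors belong. Eef1akmt1 had means of 27.97 to 87.0 TPM in the CRD genotypes and 58.1 ± 9.22 TPM in the progenitors. Dennd3 was at 28.3 to 34.4 TPM and 38.3 ± 4.82 TPM, and Cgas at 5.39 to 10.2 TPM and 10.1 ± 0.512 TPM. Each of these means was above every Pax5 +/+ library of either format. Rgs10 differed from this order, with means from 6.93 TPM in Pax5(DCRD1,2/DCRD1,2) to 148 TPM in Pax5(DCRD2/-) pro-B cells. Serpina3n had means of 0.00 to 2.91 TPM in the CRD genotypes and 0.0934 ± 0.132 TPM in the progenitors.

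**Figure D5:**
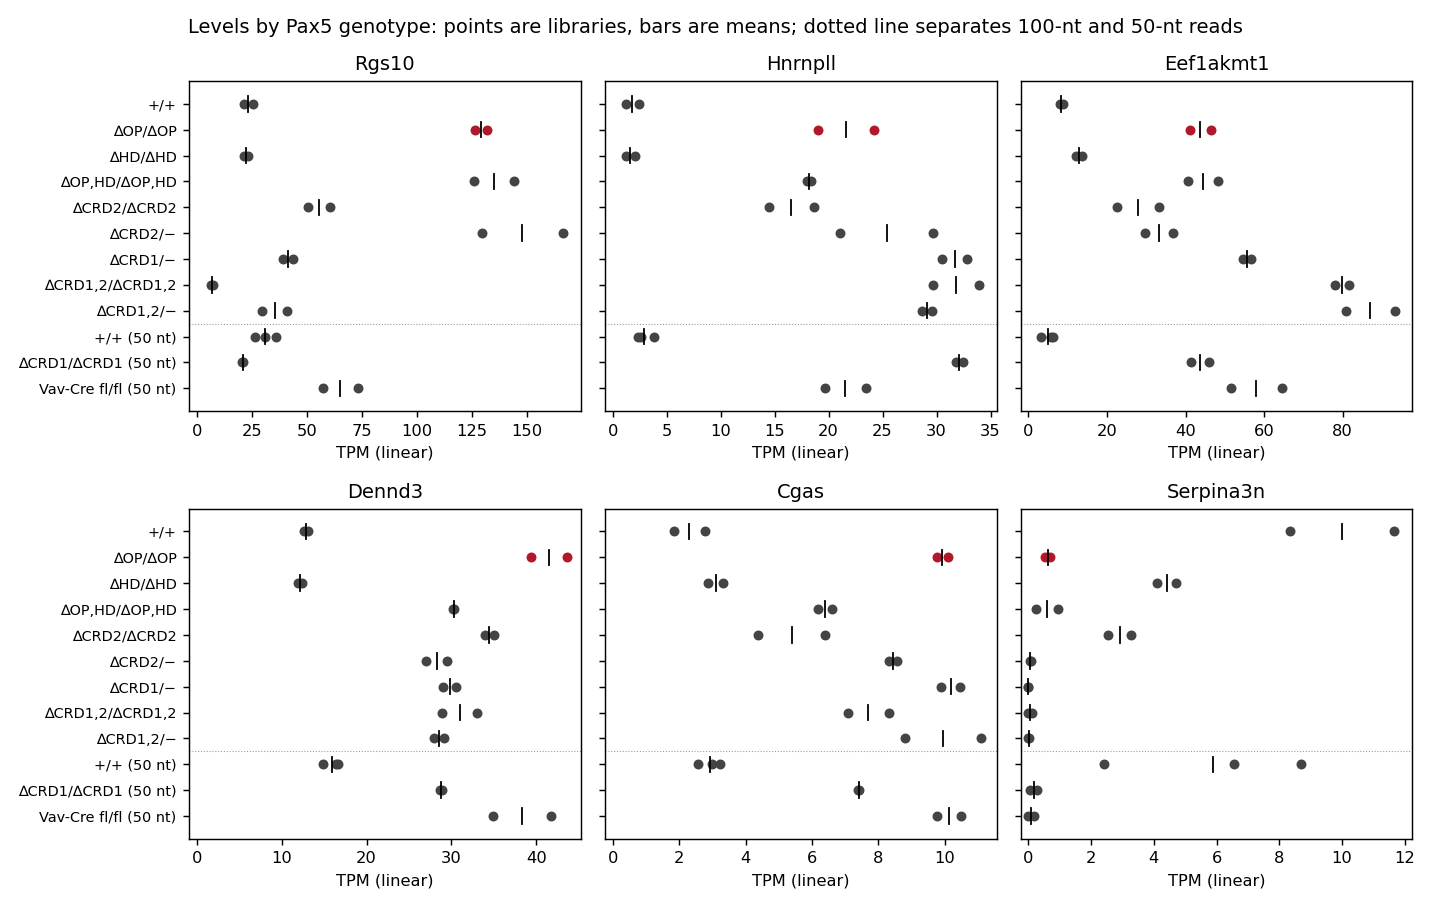
TPM (linear axis) of 6 genes in each library (points) of 12 groups by Pax5 genotype, with the mean as a bar. Groups above the dotted line have reads of 100 nt, those below of 50 nt, and Pax5 ∆OP/∆OP is in red. Hnrnpll, Eef1akmt1, Dennd3 and Cgas were low in Pax5 +/+ cells and the homeodomain mutant and higher in all other groups.

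Ptpn3 and Orm2, which begin 12.7 and 18.8 Mb from Pax5 on its chromosome, had another order. Ptpn3 had means of 0.121 to 0.488 TPM in the 6 CRD genotypes and 21.3 ± 4.60 TPM in the Vav-Cre Pax5(fl/fl) progenitors, and Orm2 had means of 0.795 to 1.39 TPM and 17.5 ± 6.58 TPM. Klrb1c was lower in both Pax5 ∆OP/∆OP libraries than in every other library shown, the nearest being a Pax5 +/+ library of the 50-nt format at 6.68 TPM. The level of 2510009E07Rik was higher in both Pax5 ∆OP/∆OP libraries than in the 6 CRD genotypes, whose means were 0.649 to 10.7 TPM.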

How the data were processed

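The members and gene lists were chosen with earlier results of these data known. Per the study's methods and the labels, the authors trimmed reads to a common length, aligned them to GRCm38 with STAR 2.4.2a, counted reads per RefSeq gene and deposited TPM, which are per gene length and sequencing depth, for each library without pooling. Raw counts were deposited by the authors in 3 files used here. Both files of Pax5(DCRD2/DCRD2) pro-B cells hold a count column whose header names Pax5 +/+ replicate 3, and it was used as that library's counts, since it was at 0 for the same genes as that library's TPM in all 25579 rows. These 2 files list no gene names, and that match also set their row order. The third file holds the counts of Vav-Cre Pax5(fl/+) pro-B cells. Counts divided by TPM gave relative gene lengths, whose ratio between the 2 libraries was constant within 1% for 100% of 11662 genes. With these lengths whole reads were recovered for the other libraries, and 100% of the values under 200 reads came out whole within 0.02.

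Genes above 1 TPM in at least 1 of the 4 libraries were tested with limma 3.58.1 (R 4.3.3) on log2(TPM + 0.1), with a trend of the spread on the mean, genotype as the only term, all 8 libraries of the 4 genotypes with central deletions or the wild-type allele, and two-sided p-values adjusted by Benjamini-Hochberg over 12631 genes. The scale understates the change of genes with low levels. In simulated data for this comparison (12557 genes, 5 draws), an adjusted p below 0.05 recovered 78.0% of 2-fold, 98.4% of 3-fold, 100% of 5-fold and 99.6% of 10-fold changes and called 0.118% of unchanged genes. The simulated spread depended on the level of a gene alone, and no gene of low level was changed. These shares therefore do not apply to genes with a larger spread or a low level. In the real data, the 16.2-fold rise of Mpo did not pass the threshold (limma, adjusted p = 0.139). DESeq2 1.42.0 and edgeR 4.0.16 on recovered reads, other pseudocounts, filters and scalings, and leaving out each library served as alternatives.

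Named genes were drawn from all genes past the 3 thresholds, 15 further genes with the smallest p and a mean above 5 TPM, up to 4 called members of each list by fold (or, without a call, up to 3 by level), Pax5, Ptprc and the Tle genes, and the 10 largest changes that missed the threshold, and any other gene is said to be chosen after its values were seen. Sequences and positions came from GRCm38 with GENCODE M21. Whether counting used strand is not given in the sources used here, so that values of genes with exons overlapping another gene are uncertain. Intervals and floors cover counting error only.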

Additional observations from a re-analysis of the deposited data

How the results depend on the processing

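No paired analysis was possible because the groups share no replicate numbers (3 and 4 against 1 and 2). All 18 genes past the 3 thresholds kept their direction in every alternative in which they were tested, but the number of calls moved. Their groups did not overlap, so another pseudocount or leaving out a library could not have reversed a direction. With a pseudocount of 0.01 TPM, 44 genes passed the adjusted p (15 lower) and 4 lower genes passed all thresholds. Without a filter on low values, 41 passed the adjusted p (25 higher, 16 lower). Without the trend, 8 genes passed all thresholds (5 higher, 3 lower) and 16 the adjusted p (7 higher, 9 lower). With only the 4 libraries compared, 6 passed all thresholds (3 higher, 3 lower) and 7 the adjusted p (3 higher, 4 lower), and Rgs10 and Eef1akmt1 were the 2 shared with the 18. DESeq2 on recovered reads gave 41 (29 higher) and 962 (501 higher, 461 lower), with 15 of the 18 shared, and edgeR gave 16 higher past all thresholds and 179 by the adjusted p (104 higher, 75 lower), with 14 of the 18 shared. Leaving immunoglobulin and histone genes out of the counts left 3 lower genes.

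Leaving out 1 library in turn gave 0 to 4 genes past all thresholds (0 to 2 higher, 0 to 2 lower) and 0 to 4 by the adjusted p (0 to 2 higher, 0 to 2 lower), with 2 and 1 without Pax5 +/+ replicates 3 and 4, and 0 and 4 without Pax5 ∆OP/∆OP replicates 1 and 2. The lone library of a genotype was then assumed to vary like the other groups. For the count of 0 by limma, 1955 genes had an unadjusted p under 0.05, and DESeq2 and edgeR were not run there. The contrast with Pax5 ∆HD/∆HD and the list medians were added after seeing the data. Of the 18 genes, 7 to 12 differed from Pax5 ∆HD/∆HD when 1 library was left out, with 9 and 7 without Pax5 ∆OP/∆OP replicates 1 and 2. Among values of single named genes, 1287 stayed on their side of the threshold, 267 lost and 29 gained a call, and none reversed.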

Other observations

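Of 253 short RNA genes tested, 144 were lower and 109 higher in the OP mutant, while 6783 of all 12631 genes were lower. Their median log2 fold change was -0.75, and 3 passed an adjusted p of 0.05. Among the large differences that did not pass the threshold, the small nucleolar RNA Snord49a was at 13.0 and 20.4 TPM in Pax5 +/+ and at 0 in both Pax5 ∆OP/∆OP libraries. Snord68 was at 18.5 and 13.2 TPM against 0, and Snord47 at 4.96 and 8.64 TPM against 0. Mir677, at 6.19 and 6.297 TPM, and Snord45b, at 1.79 and 10.9 TPM, were also at 0 in both mutant libraries. Snord33 was at 12.8 and 10.3 TPM against 0 and 2.04 TPM, and the joining segment Igkj1 at 27.5 and 36.9 TPM against 11.5 and 0 TPM. Mir6935 had the opposite direction, at 0 in both Pax5 +/+ libraries and at 2.27 and 13.0 TPM in Pax5 ∆OP/∆OP cells, as had Mir6973a, at 0 and 4.498 TPM against 9.30 and 41.7 TPM. Snord68, Snord47, Snord33 and Snord45b share exons with Rpl13, Gas5, Rpl13a and Rabggtb, and Mir6935 with Actg1, so that their values are uncertain. BC100530 was at 0 and 0.637 TPM against 8.22 and 6.44 TPM.

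The basophil and mast cell protease genes were also high in 1 library of another genotype. In Pax5(DCRD2/-) pro-B cells, Mcpt8 was at 141 TPM in replicate 1 and at 2.39 TPM in replicate 2, Prss34 at 166 and 2.13 TPM, and Cebpa at 9.23 and 0.646 TPM. These genes were chosen after their values were seen.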
